A study of Homo sapiens with 4 samples.

Results

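Interferon-stimulated genes and the sensors of double-stranded RNA were followed in HCT116 cells that had been transfected with siRNA. The set held 41 genes chosen by symbol, out of 19974 gene rows in each of the 4 libraries, as a check on the innate response to transfected siRNA. It was chosen with the si-152 against si-NC contrast of these libraries already known, so the differences of its members are a description and carry no test. Of the 41 members, 36 reached at least 1 FPKM (fragments counted per kilobase of transcript, scaled to the depth of the library) in at least 2 libraries. The other 5 (DHX58, IFI27, IFI27L1, IFI44L and XAF1) stayed below 1 FPKM in all 4.

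HCT116 is an established human colon cancer line with epithelial features. The cells grew in DMEM with serum and received, at 100 nM for 36 h, either a non-targeting control siRNA (si-NC) or an siRNA against the long non-coding RNA LINC00152 (si-152), with 2 biological replicates in each group. Both groups thus received transfection reagent and an siRNA, though not the same siRNA. No untransfected library was analysed here, so a response common to both siRNAs could not be seen. The targeted RNA was not analysed here either, and the knockdown was therefore not checked.

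In an interferon response, a cell senses foreign RNA, secretes type I or type III interferons, and the receptors of these signal through JAK kinases to a transcription factor complex that holds STAT2 and IRF9. That complex binds the interferon-stimulated response element (ISRE) in the promoters of many genes, whose products block viral entry, translation and replication. Duplex RNAs introduced by transfection can be read by the same sensors, and epithelial cells keep low levels of many of these genes without any stimulus.

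The sequence shared by most of the members that could be matched is the ISRE itself, shown here because genes of different function have it. RefSeq promoters (250 bases before to 50 bases after the start, GRCh38.p14) could be matched for 34 of the 41 members, and the letters GAAANNGAAA were found on either strand in 20 of them (58.8%), against 1255 of 35116 promoters in all (3.57%). The sites below are printed on the strand of the gene, with the ISRE letters (or their reverse complement) in capitals. They are from a modifier of proteins, an entry blocker, 3 further effectors, 2 sensors of RNA and both members with an ISRE whose libraries were lower in si-152 without overlap.
ISG15, chr1:1013380-1013409, plus strand: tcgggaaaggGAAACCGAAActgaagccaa
IFITM3, chr11:320876-320905, minus strand: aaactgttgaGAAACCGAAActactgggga
IFI6, chr1:27672266-27672295, minus strand: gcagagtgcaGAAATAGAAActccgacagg
BST2, chr19:17405735-17405764, minus strand: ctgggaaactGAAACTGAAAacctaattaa
IFIT1, chr10:89392510-89392539, plus strand: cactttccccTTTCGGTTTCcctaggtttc
OAS3, chr12:112938321-112938350, plus strand: agaaagaaacGAAACTGAAAgcagggaatt
IFIH1, chr2:162318686-162318715, minus strand: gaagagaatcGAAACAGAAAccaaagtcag
ISG20, chr15:88638937-88638966, plus strand: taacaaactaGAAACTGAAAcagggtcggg
DTX3L, chr3:122564322-122564351, plus strand: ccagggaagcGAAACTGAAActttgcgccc

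Letters of a second element, the interferon-gamma activated site GAS (TTCNNNGAA, which reads the same on both strands), were in 8 of the 34 promoters (23.5%) and in 7.66% of all promoters. In IFITM1, IFI27 and BST2 the letters of a GAS overlapped those of an ISRE. IFI27L2, the member with the largest difference between the groups, has no ISRE letters in its window. A match of letters is a description of the window and no evidence of binding in these cells. The 18 tested members with ISRE letters had a median log2 difference between the groups of 0.03, the 12 with none had 0.09, and the 212 other tested genes with ISRE letters had 0.01.

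Across the libraries the summed FPKM ran from 424754 to 534311, between 14589 and 14686 genes were above 0, and libraries correlated with each other at a Spearman coefficient of 0.981 to 0.985 across genes. The number of reads is unknown, so no counting error can be given. Keratins of simple epithelia were abundant in every library, with KRT8 at 718 to 1137.9, KRT18 at 567 to 760.3 and KRT19 at 877 to 1377.7 FPKM, and EPCAM was at 191 to 239.5 FPKM. Also present were CLDN4 (167 to 237 FPKM), ELF3 (43.5 to 60.8), CDH1 (20.7 to 25.7) and CDX2 (8.29 to 10.4), while the differentiation markers KRT20, CDX1 and CEACAM5 were listed at 0 and VIL1 did not pass 0.0567. Of the 8 epithelial markers tested, 7 were lower with si-152 (median -0.25 on the log2 scale) and 0 met a limma p below 0.05; their part in the values of the members was not tested. Of 15 immune cell markers, 13 stayed below 1 FPKM, PTPRC among them at 0, and the others were CD68 at 2.73 to 3.47 and NCAM1 at 0.883 to 1.72 FPKM. Of 8 fibroblast and endothelial markers, 7 stayed below 1 FPKM and COL1A1 was at 7.02 to 7.98 FPKM.

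Most members were expressed at a low level in all 4 libraries, and their differences between the groups were small and of both signs. The pseudocount of 1 shrinks differences at such levels. With a pseudocount of 0.1, IRF7 went from 0.35 to 0.50, OAS2 from -0.17 to -0.35 and OAS1 from 0.20 to 0.31. The median of the tested members was 0.04 in that setting. On the mean of the 4 libraries, 6 members lay below 1 FPKM, 22 between 1 and 10, 10 between 10 and 100, and 3 above 100 (IFITM3, ISG15 and IFITM2). Of the 36 tested, 21 were higher and 15 lower in si-152, with a median difference of 0.03 on the log2(FPKM + 1) scale against 0.02 over all genes. The median was -0.06 between the replicate 1 libraries and 0.08 between the replicate 2 libraries, against -0.03 and 0.07 over all genes. These counts turned on single libraries and on scaling: without si-NC replicate 2 there were 16 higher and 20 lower with a median of -0.07, and IFIT5, USP18 and SAMD9, each at 0.03, came to -0.02, -0.002 and -0.01 with quantile normalization. In bulk RNA, fewer cells that express a gene and less RNA per cell cannot be told apart.

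**Figure D1:**
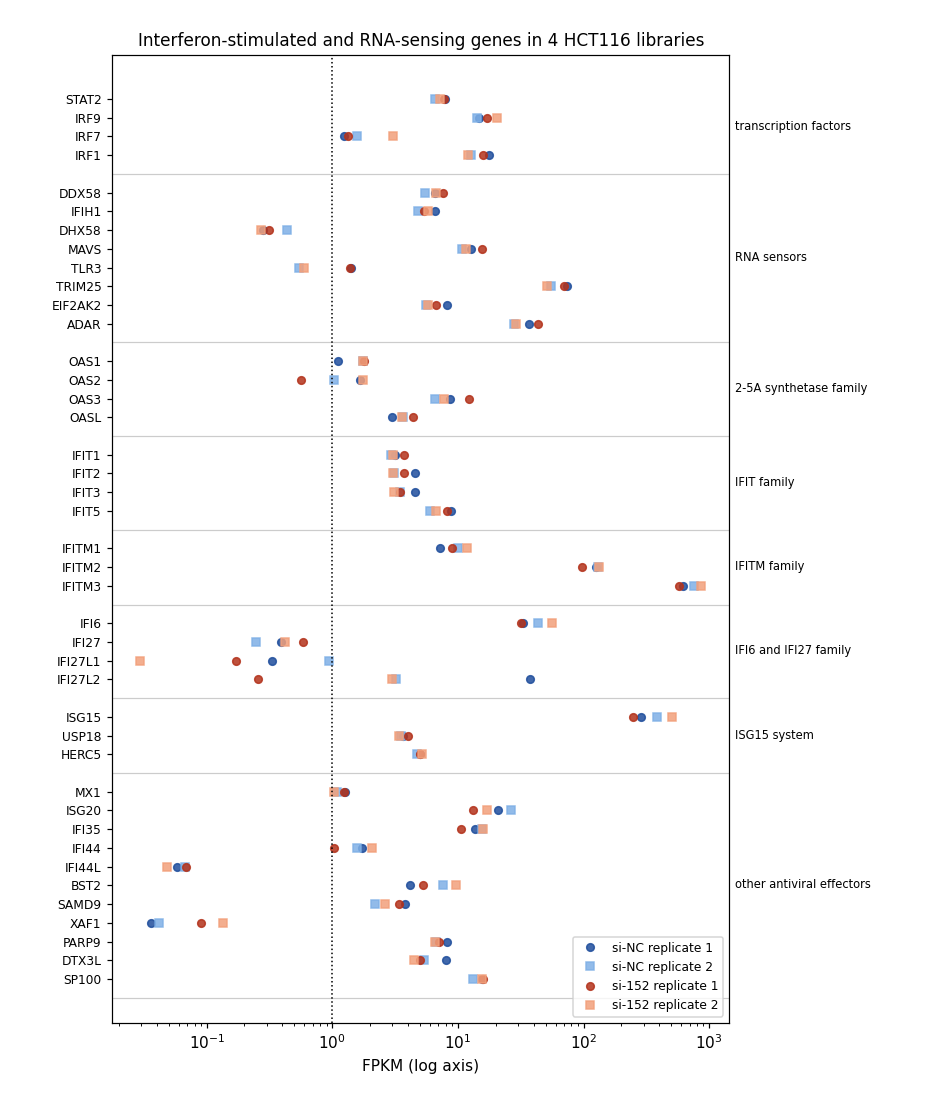
FPKM (log axis) of the 41 members in each of the 4 libraries, ordered by role, with circles for replicate 1, squares for replicate 2, blue for si-NC and red for si-152, and a dotted line at 1 FPKM. The points of most members lie close together in all libraries, and IFI27L2 is spread from 0.258 to 37.6 FPKM.

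The call rule asked for a limma p below 0.05 before adjustment and a fold above 1.5. In the downward direction 2 of the 36 members met it (IFI27L2 and ISG20), as did 1.06% of all 11222 tested genes. In the upward direction 0 met it, against 0.597% of all genes (1.66% in either direction), and after adjustment 0 members were called in either. The choice of the set used this contrast, so nothing is read from these counts. Both the upward and the downward count of members moved when single libraries were left out. Those counts are not reported here, since a lone library then stood for its group. The counts also depended on the filter. The count downwards was 1 with 1 FPKM required in every library (which drops IFI27L2) and 1 with no filter. Over all genes, in either direction, 153 of 10674 and 156 of 15727 met the rule in those settings. Both si-152 libraries were above both si-NC libraries in 4 members (IRF9, DDX58, HERC5 and SP100), against 16.5% of all genes. They were below them in 3 (IFI27L2, ISG20 and DTX3L), against 13.9%. Both same-numbered pairs differed in the same direction in 20 of the 36 members (55.6%), and in 63% of all tested genes.

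Among the transcription factors that carry the interferon signal into the nucleus, IRF9 was the one whose groups did not overlap. STAT2, which gives the ISRE-binding complex its activating domain, was at 7.85 and 6.57 FPKM with si-NC and at 7.73 and 7.24 FPKM with si-152, so its groups overlapped. IRF9, the DNA-binding subunit of that complex, was at 14.8 and 14.2 FPKM with si-NC and at 16.9 and 20.3 FPKM with si-152, a log2 difference of 0.33 (SE 0.17). In GENCODE v29 93.5% of the exon bases of IRF9 also belong to an overlapping protein-coding gene of the same strand, AL136295.5, so reads of both could be split or merged by the counting.

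IRF7, which is itself interferon-inducible and amplifies interferon production, was at 1.24 and 1.58 FPKM with si-NC and at 1.33 and 3.05 FPKM with si-152. Its log2 difference of 0.35 (SE 0.27) was the highest of all members, and it rested on si-152 replicate 2: without that library it was -0.05. IRF1, a factor shared with the interferon-gamma response, was at 17.6 and 12.7 FPKM with si-NC and at 15.7 and 12.0 FPKM with si-152. In IRF1 replicate 1 was above replicate 2 in both groups, and the groups overlapped; 15.3% of its exon bases are shared with C5orf56 on the opposite strand.

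The cytosolic sensors of RNA and their partners had group differences from -0.11 to 0.22 on the log2 scale. RIG-I, the sensor of RNA ends that carry a triphosphate, is encoded by DDX58 and was at 6.52 and 5.43 FPKM with si-NC and at 7.57 and 6.69 FPKM with si-152 (log2 difference 0.22, SE 0.19). MDA5, the sensor of long duplex RNA, is encoded by IFIH1 and was at 6.51 and 4.79 FPKM with si-NC and at 5.40 and 5.75 FPKM with si-152. The groups were narrowly apart in DDX58 and overlapped in IFIH1. The third helicase of this family, LGP2 (DHX58), stayed at 0.271 to 0.437 FPKM.

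MAVS, the mitochondrial adaptor on which both sensors converge, was at 12.8 and 10.7 FPKM with si-NC and at 15.6 and 11.6 FPKM with si-152. TRIM25, a ubiquitin ligase that assists RIG-I, was at 73.9 and 55.2 FPKM with si-NC and at 69.8 and 51.4 FPKM with si-152. Both genes were higher in replicate 1 than in replicate 2 whatever the siRNA, and their groups overlapped. TLR3, the endosomal receptor for duplex RNA, was alike in this, with 1.42 and 0.544 FPKM with si-NC and 1.39 and 0.591 FPKM with si-152, a replicate difference of -0.65 and -0.58 beside a group difference of 0.01 (log2).

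The kinase PKR, which halts translation when it binds duplex RNA, is encoded by EIF2AK2 and was at 8.25 and 5.56 FPKM with si-NC and at 6.63 and 5.78 FPKM with si-152. ADAR, the deaminase that marks duplex RNA as self, was at 36.9 and 27.8 FPKM with si-NC and at 43.2 and 29.1 FPKM with si-152. Neither gene separated the groups.

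The 2-5A synthetases make the second messenger that switches on RNase L. OAS3, the most abundant of the 4, was at 8.69 and 6.61 FPKM with si-NC and at 12.2 and 7.73 FPKM with si-152 (log2 difference 0.33, SE 0.24). That difference was 0.03 without si-152 replicate 1 and 0.63 without si-152 replicate 2. OAS1 was at 1.12 and 1.77 FPKM with si-NC and at 1.80 and 1.75 FPKM with si-152. OAS2 was lowest in si-152 replicate 1, with 1.65 and 1.04 FPKM with si-NC and 0.566 and 1.74 FPKM with si-152. The sign of its difference turned with the pair, at -0.76 in the first and 0.42 in the second. OASL, a relative without synthetase activity, was at 3.01 and 3.66 FPKM with si-NC and at 4.38 and 3.57 FPKM with si-152. In the family as a whole, 3 of the 4 were higher in si-152 on average and all 4 overlapped between the groups.

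The IFIT family includes IFIT1, which binds viral RNA that lacks the methyl marks of host caps. The genes of the family are among the most strongly induced upon RNA sensing. IFIT1 was at 3.16 and 2.92 FPKM with si-NC and at 3.73 and 3.05 FPKM with si-152. IFIT2 was at 4.58 and 3.11 FPKM with si-NC and at 3.69 and 3.03 FPKM with si-152. IFIT3, the partner that stabilizes IFIT1, was at 4.53 and 3.45 FPKM with si-NC and at 3.47 and 3.08 FPKM with si-152. These 3 genes thus stayed between 2.92 and 4.58 FPKM in every library. IFIT5 was at 8.74 and 6.00 FPKM with si-NC and at 8.22 and 6.72 FPKM with si-152. All 4 genes were higher in replicate 1 than in replicate 2 in both groups, by a median of 0.28 on the log2 scale, and their group differences lay between -0.22 and 0.12.

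The interferon-induced transmembrane proteins, which stop viruses at the membrane, included the most abundant member. IFITM3 was at 618 and 753 FPKM with si-NC and at 575 and 864 FPKM with si-152, and IFITM2 at 125 and 130.4 FPKM with si-NC and at 97.7 and 132 FPKM with si-152. For both, si-152 held the lowest library and the highest library. IFITM1 was at 7.19 and 10.0 FPKM with si-NC and at 8.95 and 11.8 FPKM with si-152. These genes are near-identical neighbours on chromosome 11, so their reads may have been divided between them by the authors' counting, and 23.7% of the IFITM3 exon bases are shared with an RNA of the opposite strand (AC136475.5). The strand setting of the counting is not given in the sources used here.

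ISG15, a ubiquitin-like protein that is attached to other proteins and also secreted, was at 289 and 382 FPKM with si-NC and at 249 and 508 FPKM with si-152. Its group difference of 0.10 (SE 0.33, log2) was made of -0.22 in the first pair and 0.41 in the second. Without si-152 replicate 2 it was -0.42, and without si-152 replicate 1 it was 0.61. USP18, which removes ISG15 and dampens the receptor, was at 3.64 and 3.53 FPKM with si-NC and at 4.01 and 3.39 FPKM with si-152. HERC5, the main ligase that attaches ISG15, was at 4.97 and 4.68 FPKM with si-NC and at 4.99 and 5.18 FPKM with si-152, barely apart. ISG15 varied widely between libraries, and its ligase and its protease were nearly level.

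IFITM3 and ISG15 together made up 63.9% to 74.4% of the summed FPKM of the set, and the sum followed them. It was 1420.2 and 1585.6 FPKM with si-NC and 1264.7 and 1843.6 FPKM with si-152, or 0.307%, 0.297%, 0.298% and 0.364% of each library in that order. Without both genes the sum was 513 and 450.1 FPKM with si-NC and 441 and 472 FPKM with si-152.

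IFI27L2 had the largest difference of the set, and nearly all of it lay between the replicate 1 libraries. IFI27L2, a small mitochondrial protein of the IFI27 family, was at 37.6 and 3.19 FPKM with si-NC and at 0.258 and 3.01 FPKM with si-152. The first si-NC library stood above the 3 others, and the replicate 2 libraries were nearly equal. The log2 difference was -2.50 (SE 0.85), made of -4.94 between the replicate 1 libraries and -0.07 between the replicate 2 libraries. It was -0.90 without si-NC replicate 1, -4.10 without si-NC replicate 2, -1.67 without si-152 replicate 1 and -3.34 without si-152 replicate 2. IFI27L2 lies at chr14:94127779-94130253 on the minus strand (GRCh38), and its longest coding transcript, of 556 bases, is the shortest among the tested members.

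The neighbours of IFI27L2 were at or below 1.42 FPKM in all libraries. IFI27, the family's founding interferon-inducible gene, was at 0.392 and 0.248 FPKM with si-NC and at 0.584 and 0.424 FPKM with si-152. IFI27L1 was at 0.329 and 0.948 FPKM with si-NC and at 0.171 and 0.0296 FPKM with si-152. Within 150000 bases on each side (genes named after their values were seen), OTUB2, DDX24 and PPP4R4 were looked at as well. DDX24 was at 0.702 and 0.639 FPKM with si-NC and at 1.29 and 1.42 FPKM with si-152. Without overlap of the groups, DDX24 and IFI27 were higher in si-152, the opposite direction to IFI27L2, and IFI27L1 was lower. IFI27, IFI27L1, OTUB2 and PPP4R4 were below 1 FPKM in all libraries. PPP4R4, like IFI27L2, was highest in si-NC replicate 1, at 0.477 FPKM against 0.012 to 0.0545 FPKM in the other libraries, and OTUB2, DDX24, IFI27 and IFI27L1 were not. IFI6, the most abundant member of the family, was at 32.8 and 43.2 FPKM with si-NC and at 31.7 and 56.2 FPKM with si-152, and its groups overlapped.

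**Figure D2:**
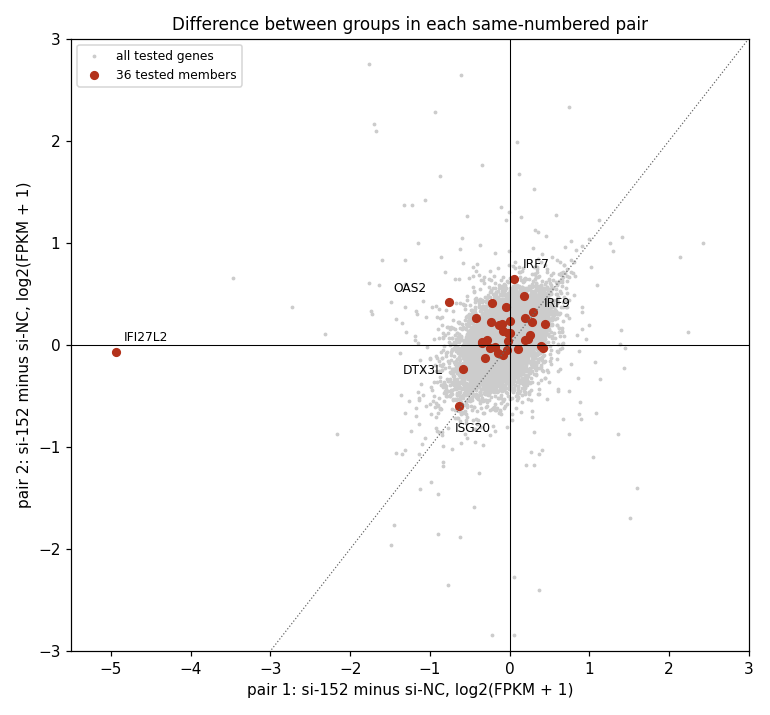
Difference between si-152 and si-NC on the log2(FPKM + 1) scale in the replicate 1 libraries (horizontal) and in the replicate 2 libraries (vertical), for all tested genes in grey and the 36 tested members in red, with 8 genes outside the axes. IFI27L2 lies at -4.94 and -0.07, ISG20 on the dotted line of equal differences at -0.64 and -0.60, and the other members within the cloud of all genes.

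ISG20 was lower with si-152 by a like amount in both pairs. ISG20, an exonuclease that degrades single-stranded RNA, was at 20.9 and 26.3 FPKM with si-NC and at 13.1 and 17.0 FPKM with si-152. Both si-152 libraries were below both si-NC libraries, with a log2 difference of -0.62 (SE 0.20) made of -0.64 and -0.60. The gene lies at chr15:88636153-88656483 on the plus strand. DTX3L, a ubiquitin ligase that works with PARP9, was at 8.01 and 5.41 FPKM with si-NC and at 4.99 and 4.44 FPKM with si-152 (log2 difference -0.41, SE 0.22). It was -0.17 without si-NC replicate 1 and -0.66 without si-NC replicate 2. PARP9, an ADP-ribosyltransferase that shares its promoter region and 217 exon bases of the opposite strand with DTX3L, was at 8.16 and 6.70 FPKM with si-NC and at 7.10 and 6.59 FPKM with si-152. The groups of DTX3L did not overlap and those of PARP9 did.

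The remaining effectors differed more between replicates than between groups in most cases. BST2 (tetherin), which holds budding virions at the cell surface, was at 4.13 and 7.60 FPKM with si-NC and at 5.29 and 9.72 FPKM with si-152. Its replicate difference was 0.75 in si-NC and 0.77 in si-152 on the log2 scale, and its group difference 0.31 (SE 0.31). The latter was -0.07 without si-NC replicate 1 and -0.08 without si-152 replicate 2, and 0.68 and 0.69 without si-NC replicate 2 and without si-152 replicate 1. SAMD9, a factor that restricts poxviruses, was at 3.81 and 2.19 FPKM with si-NC and at 3.38 and 2.65 FPKM with si-152. SP100, a component of nuclear bodies, was at 15.6 and 13.2 FPKM with si-NC and at 15.8 and 15.6 FPKM with si-152, so the nearest libraries of the groups were level.

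MX1, the dynamin-like GTPase that is a textbook readout of type I interferon, stayed at 1.27 and 1.09 FPKM with si-NC and at 1.23 and 1.03 FPKM with si-152. IFI35 was at 13.7 and 15.6 FPKM with si-NC and at 10.6 and 15.9 FPKM with si-152. IFI44 was at 1.71 and 1.56 FPKM with si-NC and at 1.03 and 2.07 FPKM with si-152. For IFI35 and IFI44, as for IFITM2, IFITM3, ISG15, IFI6 and OAS2, the lowest library was si-152 replicate 1 and the highest si-152 replicate 2. IFI44L was at 0.0487 to 0.0688 FPKM and XAF1 at 0.0361 to 0.134 FPKM, and 69.9% of the XAF1 exon bases are shared with PRAL on the opposite strand.

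When IFI27L2, ISG20 and DTX3L were set aside, the other 33 tested members lay between -0.22 and 0.35 on the log2 scale, with 21 higher and 12 lower. Against that, the mean difference between replicate 2 and replicate 1 was larger than the difference between groups in 27 of the 36 members (75%), and in 63.1% of all genes. Its median size was 0.32 for the members and 0.20 for all genes, while the median size of the group difference was 0.14 and 0.13. Replicate 2 was below replicate 1 in both groups for 19 members and above it in both for 9.

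The direction of the replicate difference went with transcript length. Across the 36 members, the Spearman coefficient between the length of the longest coding transcript and the replicate difference was -0.70, and it was -0.67 across the 10766 of 11219 genes with a length. These are descriptions across genes that share 4 libraries. Of the 8 members under 1500 bases, 7 were higher in replicate 2 (median 0.41 on the log2 scale), and of the 28 longer members 22 were lower (median -0.16). Over all genes the medians were 0.31 for the 1196 short genes and -0.10 for the 9570 longer ones. Short transcripts include ISG15, IFITM1, IFITM2, IFITM3, IFI6 and BST2, and long ones the sensors and adaptors TLR3, MAVS, ADAR and TRIM25.

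**Figure D3:**
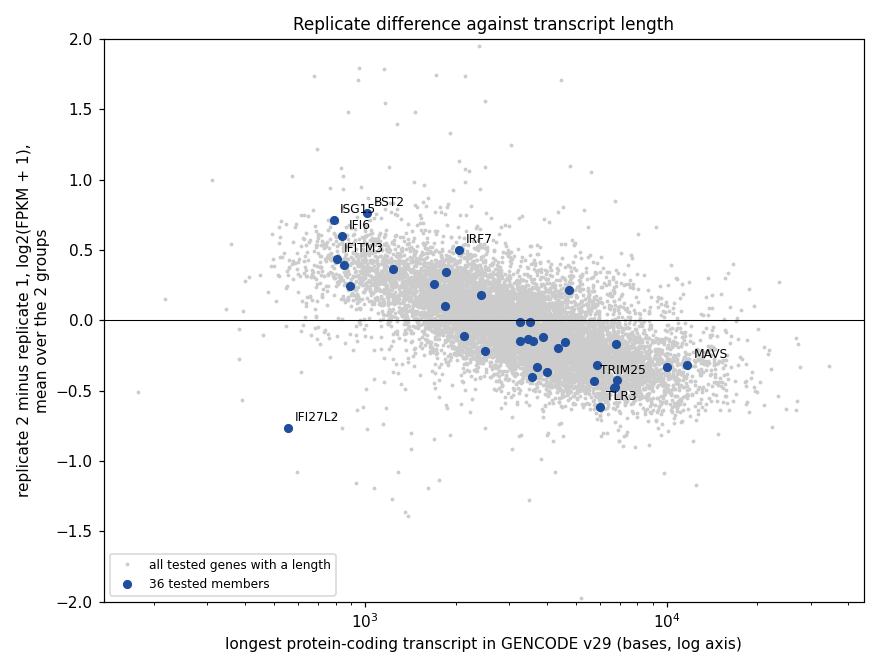
Difference between replicate 2 and replicate 1 (log2(FPKM + 1), mean of both groups) against the length of the longest protein-coding transcript (bases, log axis), for all tested genes with a length in grey and the 36 tested members in blue, with 13 genes outside the axes. Short members such as ISG15 and BST2 lie above 0, long ones such as TLR3 and MAVS below, and IFI27L2 stands apart from both.

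The difference between the groups did not follow length among the members, with a Spearman coefficient of -0.04, whereas it was 0.28 over all genes. Within the short members, though, 7 of 8 (87.5%) had their highest value in si-152 replicate 2, against 33.3% of all genes of that length. The library highest for most short genes was si-NC replicate 2, at 52.7%, and it was highest for 0 of the 8. What the replicate numbers stand for beyond separate biological replicates is not given in the labels, and the part of the replicate difference in the values of single members was not tested.

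The other genes of the pathway were taken from lists of non-members, each gene being tested by limma across all 11222 genes. At an unadjusted p below 0.05, limma called 1.89% of all genes in the higher and 2.5% in the lower direction (4.38% in either), and after Benjamini-Hochberg adjustment 2 genes (0.0178%) passed, neither of them in these lists. Of 12 interferon genes, the ligands of the pathway, 11 stayed below 1 FPKM. IFNB1, the interferon made first upon RNA sensing, was at 0.147 and 0.625 FPKM with si-NC and at 0.577 and 0.338 FPKM with si-152. IFNE, an interferon that epithelia make without infection, was at 2.81 and 2.34 FPKM with si-NC and at 3.05 and 3.70 FPKM with si-152 (log2 difference 0.29, SE 0.20), which did not pass.

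All 17 receptors, kinases and feedback regulators were expressed, 11 higher and 6 lower in si-152, with a median of 0.08, and 1 passed the unadjusted threshold in each direction. SOCS1, an inhibitor of JAK kinases, was at 12.7 and 11.8 FPKM with si-NC and at 5.27 and 10.6 FPKM with si-152 (log2 difference -0.64, SE 0.27, limma unadjusted p = 0.0402, adjusted p = 1.00). It was -0.19 and did not pass without si-152 replicate 1, nor did it pass with no filter on low genes. PTPN11, the phosphatase SHP2, was at 35.5 and 27.4 FPKM with si-NC and at 46.9 and 38.4 FPKM with si-152 (log2 difference 0.43, SE 0.19, limma unadjusted p = 0.0482, adjusted p = 1.00). It did not pass without si-NC replicate 2 (0.25) or without si-152 replicate 1 (0.29), nor with no filter, size factors, quantile normalization or no variance trend. STAT3 was at 13.7 and 10.6 FPKM with si-NC and at 19.8 and 14.4 FPKM with si-152 and did not pass (log2 difference 0.45, SE 0.21), though it did without si-NC replicate 1 (0.62) and without si-152 replicate 2 (0.67). The phosphatase PTPN2 did not pass (-0.07, SE 0.17).

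Among 29 expressed sensing adaptors, kinases and DNA sensors, of 37 listed, 16 were higher and 13 lower, with a median of 0.01, and 1 passed the unadjusted threshold. This was STING (TMEM173), the adaptor of the DNA sensor cGAS, at 32.1 and 30.4 FPKM with si-NC and at 22.9 and 21.6 FPKM with si-152 (log2 difference -0.47, SE 0.16, limma unadjusted p = 0.0162, adjusted p = 0.964). Its difference was -0.47 in each pair, and it did not pass without si-NC replicate 1 (-0.43) or without si-152 replicate 2 (-0.43). IRF3, the factor that RNA sensing activates directly, was at 47.5 and 57.9 FPKM with si-NC and at 47.1 and 59.2 FPKM with si-152. The abundant helicases DDX3X (0.09, SE 0.24) and DHX9 (-0.10, SE 0.18) did not pass, and neither did the NF-kB regulators IKBKG (0.45, SE 0.21) and CYLD (-0.42, SE 0.23). IKBKG passed without si-152 replicate 2 (0.65) and with 1 FPKM required in every library, and CYLD without si-NC replicate 2 (-0.59) and with quantile normalization.

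Of 59 further interferon-stimulated genes, 41 were tested, 25 higher and 16 lower, with a median of 0.03 equal to that of the members. In this list 1 gene passed the unadjusted threshold upwards and 2 downwards. OGFR, a receptor for the opioid growth factor, was at 23.0 and 26.3 FPKM with si-NC and at 38.0 and 51.9 FPKM with si-152 (log2 difference 0.83, SE 0.19, limma unadjusted p = 0.00173, adjusted p = 0.595). ETV7, a repressor of the ETS family, was at 1.29 and 1.34 FPKM with si-NC and at 0.527 and 0.478 FPKM with si-152 (-0.62, SE 0.20, limma unadjusted p = 0.0107, adjusted p = 0.878). ETV7 reached 1 FPKM in the si-NC libraries only, so it passed the filter through the group where it was high, and its p carries that choice. It was not tested with 1 FPKM required in every library, nor without either si-NC library. With a pseudocount of 0.1 the difference of ETV7 was -1.23, and with 0.5 it was -0.86. NT5C3A, a nucleotidase, was at 20.7 and 19.3 FPKM with si-NC and at 11.5 and 14.4 FPKM with si-152 (-0.60, SE 0.18, limma unadjusted p = 0.00810, adjusted p = 0.807), and was at -0.45 and did not pass without si-152 replicate 1. The most abundant genes of the list, LGALS3BP (0.01, SE 0.20), WARS (-0.23, SE 0.18) and SHISA5 (0.02, SE 0.19), did not pass.

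MHC class I and peptide loading genes, which interferon also raises, had 14 of 21 expressed, 9 higher and 5 lower with a median of 0.05, and limma called 0 at the unadjusted threshold. PSMB10, a subunit of the interferon-inducible immunoproteasome, was at 25.2 and 45.0 FPKM with si-NC and at 20.7 and 35.0 FPKM with si-152, so that its replicate difference of 0.81 and 0.73 (log2) exceeded its group difference of -0.31. The sign of that difference turned without si-NC replicate 2 (0.09) or si-152 replicate 1 (0.05), and it passed the threshold without si-NC replicate 1 (-0.72) or si-152 replicate 2 (-0.68). ERAP1 (0.33, SE 0.20) and the chaperones CALR (0.06, SE 0.23), CANX (0.04, SE 0.24) and PDIA3 (-0.21, SE 0.20) did not pass.

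**Figure D4:**
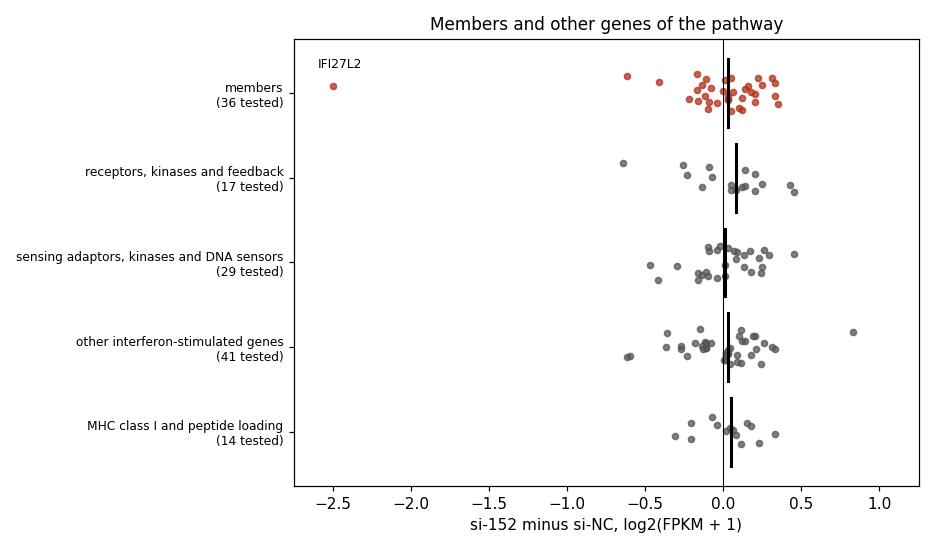
Difference between si-152 and si-NC (log2(FPKM + 1)) of each tested gene, for the 36 members in red and for 4 lists of other genes of the pathway in grey, with a thick line at the median of each. All medians lie between 0.01 and 0.08, and IFI27L2 at -2.50 is the point furthest from 0.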

How the data were processed

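RNA of 2 si-NC and 2 si-152 libraries was sequenced by the authors on the Solexa platform. The submitters' processing notes name Trimmomatic, TopHat, HISAT2, HTSeq, DESeq and GRCh38, without role or version. The authors deposited 1 value per gene symbol and library, read here as FPKM, since decimals, exact zeros and unequal sums go with that unit and none is named with the values. Of 19974 rows, 28 symbols read as dates and 2 were repeats. Depth is unknown, so differences of low genes have no counting interval.

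No scaling was applied. With a pseudocount of 1, log2 values of the 11222 genes at 1 FPKM or more in at least 2 libraries were fitted with limma 3.58.1 under R 4.3.3. The variance followed a trend on the mean, p-values were adjusted by Benjamini and Hochberg, and this came after a check of the script on simulated data. The log2(FPKM + 1) scale understates differences of low genes. Promoter letters, transcript lengths and exon overlaps were computed from RefSeq promoters and GENCODE v29 (pandas 2.3.3, scipy 1.17.1, numpy 2.4.6, Python 3.11.15). SE is the moderated standard error of the difference.

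The members and all lists were chosen with earlier results of these data known. Tested members were named with all their values. From each list, the genes under an unadjusted p of 0.05, the 3 most abundant and the 3 with the largest difference were named, and of interferons and markers each gene at 1 FPKM or more. Alternatives to the pseudocount, filter, scaling, replicate block and trend were run, and each library was left out in turn. Protein sequences were not used here. Some genes that the naming rule picks from the lists are not reported here.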

Additional observations from a re-analysis of the deposited data

How the results depend on the processing

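Over the 12 alternatives the median difference of the members lay between -0.07 (without si-NC replicate 2) and 0.08 (without si-NC replicate 1). Counts of genes under an unadjusted p of 0.05 in the pathway lists were small and moved easily. Receptors, kinases and feedback regulators gave 2, but 0 without a filter and 1 each with size factors, quantile normalization or no trend. Sensing adaptors gave 1, but 2 with the filter in every library, without a filter or with quantile normalization. Other interferon-stimulated genes gave 3, but 5 with quantile normalization. Over all genes the share under that p was 4.38% in the main fit and 5.77% with quantile normalization. It was 4.29% with the filter in every library, 5.06% without a filter, 4.88% with size factors and 4.17% with no trend. The cause was not tested.

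Over all genes 186 passed p and fold. Leaving out 1 library gave 234 to 531 (434 without si-NC replicate 1, 298 without si-NC replicate 2, 531 without si-152 replicate 2), 1 to 4 among receptors, 1 to 2 among sensing adaptors, 2 to 5 among other interferon-stimulated genes and 0 to 1 in MHC class I genes. The lone library of an arm was then assumed to vary like the other group. Of these counts, those over all genes asked for both an unadjusted p below 0.05 and a fold above 1.5. Those in the lists asked for the p alone, so the all-gene counts are no background for them. The share of all genes under the p alone also moved with the library left out. Nothing is therefore read from the list counts of these fits. Of the single genes named from the lists, 261 values kept their side of the threshold, 11 lost a call and 13 gained one. The pseudocounts of 0.1 and 0.5 took IFI27L2 to -3.40 and -2.86 and ETV7 to -1.23 and -0.86.

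The labels give shared replicate numbers but no shared source. Deviations of same-numbered libraries correlated at 0.492 over 11222 genes. With the replicate block the counts were 4 among receptors, 4 among sensing adaptors, 9 among other interferon-stimulated genes and 2 in MHC class I genes. Over all genes the block raised the share under p of 0.05 from 4.38% to 16.9%. STAT3, IKBKG, CYLD, PSMB10 and ERAP1 were called with it and not in the main fit.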
